A study of Mus musculus with 3 samples.

Results

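Mature V1R neurons are the apical vomeronasal sensory neurons (VSNs) that have finished differentiation and express receptors of the V1R family. They were chosen here cell by cell from single-cell RNA-sequencing of the mouse vomeronasal organ (VNO), with a rule on measured transcripts. A cell was kept when it had 200 to 9000 genes and at most 10% mitochondrial transcripts. It was called a mature neuron with at least 1 Omp transcript, at least 3 transcripts of Calb2 and Chga together, and Gap43 and Stmn2 together at no more than 0.1% of its transcripts. It was called V1R when it held at least 5 receptor transcripts, of which at least 80% came from Vmn1r genes. The rule took 210 of the 15711 cells kept, out of 27359 barcodes in the 3 libraries. Transcripts are counted as unique molecular identifiers (UMIs), and pooled levels are given as UMIs per 1000000 UMIs of the same cells (CPM).

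Each group was 1 library, so no difference below carries a test and none has a replicate check. Brackets give 95% intervals from the counts (Poisson for a level, binomial for a share or a ratio), which cover counting error only. The P10 control library came from OMPCre Heterozygous males and the P10 mutant library from OMPCreR26AP2e Double Heterozygous males, both at postnatal day 10. The third library came from OMPCreR26AP2e Double Heterozygous males at 3 months. All 3 therefore carried an OMPCre allele, all were on a mixed C57 BL/6J and 129P2/OlaHsd background, and the number of animals behind each library was not given in the sources used here. The Cre is driven from the Omp locus, which is active in maturing sensory neurons of both VSN types and of the main olfactory epithelium. The R26AP2e allele is named for the Rosa26 locus and for AP-2ε, the protein of Tfap2e, and the counts do not tell its transcripts from those of the gene itself. The P10 comparison asks what differs with the R26AP2e allele at one age, and the comparison of the mutants asks what differs with age. At P10 genotype and library cannot be told apart. The mutants were also counted with different versions of the software Cell Ranger, 4.0.0 at P10 and 6.0.1 at 3 months. Between them age, library and software version cannot be told apart. Both comparisons use the P10 mutant library.

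The VNO detects pheromones through a pair of neuron types. Apical VSNs express V1R receptors, the G protein subunit encoded by Gnai2 and the transcription factor Meis2, whereas basal VSNs express V2R receptors, the subunit encoded by Gnao1 and the transcription factor Tfap2e. In both, receptor activation opens the channel Trpc2 through phospholipase C, and as a rule a V1R neuron uses a single receptor gene.

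The P10 control held 110 such cells of 4795 kept (2.29% [1.89, 2.76]), the P10 mutant 38 of 3956 (0.961% [0.681, 1.32]) and the 3-month mutant 62 of 6960 (0.891% [0.684, 1.14]). The share was thus higher in the control than in either mutant, by more than counting error. The libraries had 83870584, 80760046 and 70074800 UMIs. The selected cells held 3465040, 1384753 and 1763564 of them, with median UMIs per cell of 26115, 31673 and 26197. The 3 pairs of libraries shared 21, 26 and 30 barcodes, and 1 shared barcode was a selected cell. Just inside the maturity limit the nearest cell of the P10 control had 0.0972% of its UMIs from Gap43 and Stmn2, and the nearest cell outside had 0.101%. The corresponding values were 0.0985% and 0.101% for the P10 mutant and 0.0967% and 0.124% at 3 months. Over that limit stood 89, 36 and 2 V1R neurons. At the Omp limit, 22, 7 and 14 selected cells had 1 Omp UMI. A further 41, 26 and 37 cells met every other condition but had no Omp UMI, so the shares depend on that limit.

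The markers bore out the label for only some of these cells. All 7 markers of the mature V1R type were detected in every library. Omp, Calb2 and Chga were conditions of the rule. The others were Gnai2, Meis2, the Golgi protein gene Gfy and the neuropeptide gene Cartpt. The immune cells described below were chosen without Calb2 or Chga, so at most 5 of the 7 could be detected there, and 5 were. The markers summed to 884, 857 and 705 CPM there, against 10570, 10878 and 9706 CPM in the selected cells. The rules for both sets of cells partly fix that contrast, so it is not evidence for the label. However, a large share of the cells also held Krt8 and Krt18, keratins of epithelial cells that a sensory neuron should lack. Summed keratin was under 300 CPM in 44, 9 and 13 cells of the P10 control, P10 mutant and 3-month mutant, and at least 3000 CPM in 32, 12 and 24 cells. The cells were therefore split after the data had been seen. Keratin-poor cells had Calb2 and Chga together at 1000 CPM or more and keratin under 1000 CPM, and there were 49, 16 and 23 of them. Keratin-rich cells passed the neuronal limit with more keratin and numbered 45, 15 and 33. The remaining 16, 7 and 6 cells had Calb2 and Chga below 1000 CPM.

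The 3 kinds differed in depth and in content. Keratin-poor cells had median UMIs of 21718, 26621 and 19082, and keratin-rich cells had 40031, 38707 and 36092. The Vmn1r genes summed to 17415, 14358 and 20845 CPM in keratin-poor cells, against 9078, 6252 and 7897 CPM in keratin-rich cells. Cells poor in Calb2 and Chga had only 251, 229 and 622 CPM of Vmn1r, so they met the rule on receptors with few receptor UMIs. Cyp2a5, a marker of the sustentacular cells that support the neurons, was at 1.12, 12.7 and 5.34 CPM in keratin-poor cells and at 117, 124 and 847 CPM in keratin-rich cells. Macrophage and dendritic markers summed to 1019, 45.6 and 141 CPM in keratin-poor cells and 1718, 1601 and 4399 CPM in keratin-rich cells. Of those UMIs in keratin-poor control cells, 48.2% lay in 1 cell. Mast cell markers were at 728 CPM in keratin-poor control cells, with 99.8% in 1 cell. Stroma and bone markers were at 1993 CPM in keratin-poor cells at 3 months, with 66.0% in 1 cell. The keratin-poor set thus still held cells with many transcripts of other cell types. Whether keratin-rich barcodes held more than 1 cell was not tested. All results below are given for the 210 cells of the rule, with the keratin-poor values beside them.

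Of mature neurons with a classified receptor, V1R neurons made up 88.0% [81.0, 93.1] of 125 in the control, 79.2% [65.0, 89.5] of 48 in the P10 mutant and 59.6% [49.5, 69.1] of 104 at 3 months. In keratin-poor cells the shares were 94.2% [84.1, 98.8] of 52, 72.7% [49.8, 89.3] of 22 and 62.2% [44.8, 77.5] of 37. The intervals of both P10 libraries overlapped in either set. Overlap of separate intervals does not settle whether counting error covers the difference, so no direction is drawn at P10. The 3-month interval lay below that of the control in both sets. Between those libraries genotype, age, library and software version cannot be told apart. V2R neurons numbered 13, 8 and 40, and 2 mature neurons of each library met neither 80% limit.

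Tfap2e (chromosome 4, 126716006 to 126736240, minus strand, in GENCODE M21 on mm10) encodes the basal transcription factor that the R26AP2e allele is named for, and was checked first against the labels. It had 1 UMI in the 110 V1R neurons of the P10 control. The P10 mutant held 545 UMIs (394 CPM [361, 428]) and the 3-month mutant 351 UMIs (199 CPM [179, 221]). It was seen in 1 of 110, 35 of 38 and 48 of 62 cells. Keratin-poor cells held 0 UMIs in the control, 661 CPM [584, 747] in the P10 mutant and 267 CPM [217, 325] at 3 months. Single keratin-poor cells of the P10 mutant ran from 0 to 1329 CPM with a median of 708, and those of the 3-month mutant from 0 to 964 CPM with a median of 309. The libraries thus matched their labels, and single cells of the mutant libraries overlapped, while all control cells but 1 had no Tfap2e UMI.

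The size of the Tfap2e difference was bounded by the control. Over all V1R neurons the P10 ratio, mutant over control, was 1364 [244, 53962], resting on a single control UMI. In keratin-poor cells the ratio was 197 with a floor of 3 counts in place of 0 for the control. That value is set by the floor and is not a bound. The 3-month mutant stood at 0.506 [0.441, 0.579] of the P10 mutant over all V1R neurons and at 0.403 [0.317, 0.510] in keratin-poor cells. After thinning each cell to 2000 UMIs, Tfap2e was seen in 0%, 57.9% and 29.3% of V1R neurons, with 6, 0 and 4 shallower cells left out, where the unthinned shares were 0.909%, 92.1% and 77.4%.

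Tfap2e UMIs also lay outside the neurons. Immune cells were taken as a background set that should lack the gene. These were cells with at least 5 Tyrobp UMIs and no Calb2 or Chga, and numbered 443, 683 and 1212. They held Tfap2e at 0.498, 26.9 and 14.1 CPM, in 0.451%, 11.7% and 7.34% of cells, at median depths of 6730, 4228 and 6698 UMIs. After thinning the shares were 0%, 4.13% and 3.04%. The V1R neurons of both mutants were above that background on each measure. In V2R neurons, which use the gene in the control, Tfap2e was at 136, 454 and 210 CPM.

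**Figure D1:**
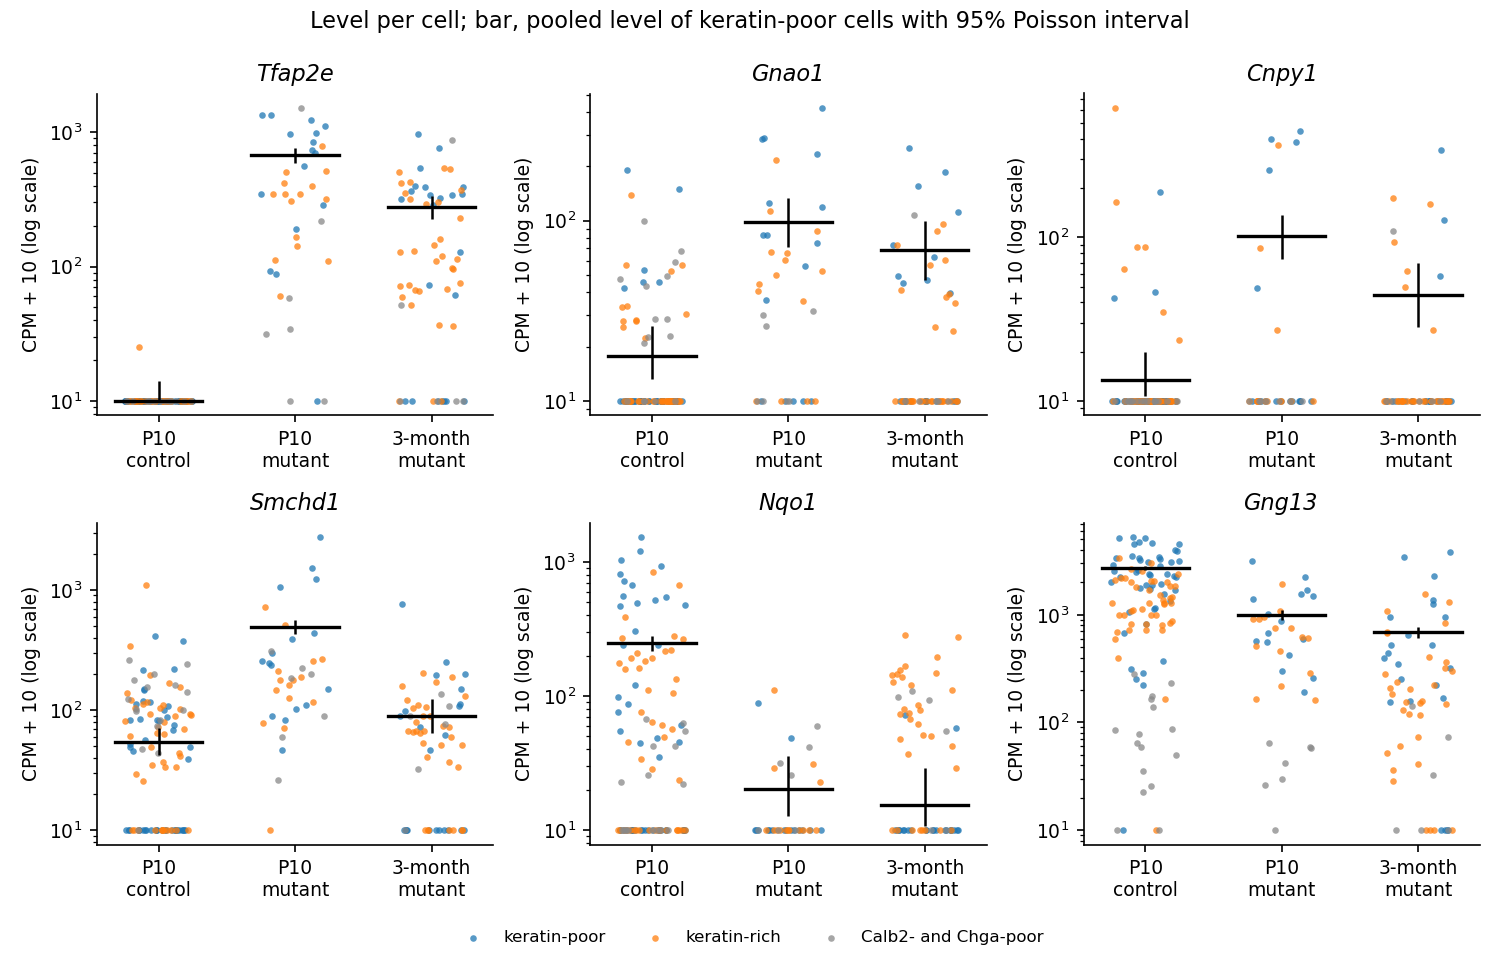
Levels of Tfap2e, Gnao1, Cnpy1, Smchd1, Nqo1 and Gng13 in each mature V1R neuron (CPM + 10, log scale) by library, coloured as keratin-poor, keratin-rich or poor in Calb2 and Chga. Black bars give the pooled level of keratin-poor cells with its 95% Poisson interval, which for Tfap2e is 0, 661 and 267 CPM from left to right.

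Gnao1 (chromosome 8, 93809966 to 93969388, plus strand), the G protein subunit gene of basal VSNs, was higher in V1R neurons of the P10 mutant. The control held 44 UMIs (12.7 CPM [9.23, 17.0]), the P10 mutant 70 (50.6 CPM [39.4, 63.9]) and the 3-month mutant 45 (25.5 CPM [18.6, 34.1]). The P10 ratio was 3.98 [2.69, 5.94], and in keratin-poor cells, at 7.82, 88.7 and 58.7 CPM, it was 11.3 [4.96, 30.3]. The level stayed below that of V2R neurons, which held 391, 173 and 499 CPM. Between the mutants Gnao1 had a ratio of 0.505 over all V1R neurons, but in keratin-poor cells the ratio of 0.662 [0.370, 1.16] included 1.

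The main apical genes differed by less. Gnai2, the apical partner of Gnao1, was at 1982, 1462 and 1393 CPM, and in keratin-poor cells at 3427, 3011 and 2175 CPM, with a P10 ratio there of 0.878 [0.821, 0.940]. Every keratin-poor cell of both P10 libraries held Gnai2, at 933 to 5710 CPM in the control and 1101 to 4145 CPM in the mutant. Meis2 was at 643, 572 and 476 CPM, and its P10 ratio in keratin-poor cells was 0.965 [0.847, 1.10]. At 3 months both were lower than in the P10 mutant in keratin-poor cells, at 0.722 [0.660, 0.790] of it for Gnai2 and 0.686 [0.576, 0.816] for Meis2. V1R receptors were required of every cell by the rule.

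The list of apical identity genes held 12 genes, of which 8 had the 20 UMIs required here. Past 2-fold between the P10 libraries, 0 were higher and 1 was lower, where 2.85% and 3.91% of all 11527 genes with 20 UMIs were higher and lower. The median log2 ratio of the list was -0.42, where that of all genes was -0.02. In keratin-poor cells 0 of 7 were higher and 3 were lower, where 3.28% and 6.38% of 7287 genes were, and the median was -0.33. These 3 were Nqo1, Kirrel2 and Pde4a. Nqo1 (chromosome 8, 107388225 to 107403206, minus strand), a quinone reductase gene, was at 136 CPM [124, 149], 10.8 CPM [6.06, 17.9] and 63.5 CPM [52.3, 76.4] in the 3 libraries. It was seen in 26 of 49 keratin-poor control cells, 2 of 16 keratin-poor cells of the P10 mutant and 2 of 23 at 3 months. Its P10 ratio was 0.0795 [0.044, 0.133] over all V1R neurons and 0.0426 [0.0115, 0.111] in keratin-poor cells.

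Nqo1 showed opposite directions between the mutants in the 2 sets of cells. Over all V1R neurons the 3-month mutant was 5.86 times [3.41, 10.8] the P10 mutant, but in keratin-poor cells the counts were 4 UMIs in the P10 mutant and 2 at 3 months, a ratio of 0.526 [0.0476, 3.67]. Of the 112 UMIs at 3 months, 2 were in keratin-poor cells. Keratin-poor cells thus held Nqo1 near 0 in both mutants. Kirrel2, an adhesion molecule gene of VSN axons, was at 213, 111 and 117 CPM, with a P10 ratio of 0.398 [0.307, 0.510] in keratin-poor cells. Pde4a, which encodes a cAMP phosphodiesterase, had one of 0.457 [0.288, 0.701]. Nrp2, the guidance receptor gene of apical axons, had a keratin-poor ratio of 0.794 [0.625, 1.00].

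The list of basal identity genes lay on the other side of 1 at P10. Of its 19 genes present in the files, 9 had 20 UMIs, 4 were at least 2-fold higher and 1 was at least 2-fold lower, and the median log2 ratio was 0.68. Of all genes 2.85% were higher and 3.91% lower. In keratin-poor cells 5 of 7 were higher and 0 lower, where 3.28% and 6.38% of all genes were, with a median of 1.14. These 5 include Tfap2e itself, which the R26AP2e allele is named for. Beside Tfap2e and Gnao1 they were Kirrel3, Apmap and Mt3. Kirrel3, a relative of Kirrel2 used by basal VSNs, was at 30.3, 72.2 and 49.3 CPM, with a keratin-poor P10 ratio of 2.05 [1.40, 2.99]. Apmap, a membrane protein gene named for adipocytes, had a ratio of 2.20 [1.76, 2.75]. Mt3, a metallothionein gene, was at 8.08, 36.8 and 65.2 CPM with a ratio of 7.81 [3.63, 18.7]. With each cell thinned to 2000 UMIs its P10 ratio over all V1R neurons was 0.456. At these levels thinning leaves few Mt3 UMIs, so no direction is read from that last value. Calr4, a calreticulin gene, missed 2-fold with 1.88 [1.66, 2.12]. Between the mutants the basal list had a median of -0.12, and in keratin-poor cells of -0.60, where all genes had medians of -0.05 and -0.12. With no minimum of UMIs the first of these was 0.36, a value that the floor of 3 counts for genes at 0 can shift. No direction is given for it.

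A second pair of lists was chosen from these data, in immature neurons of the same P10 control library, and so is not independent of it. The 179 immature V1R and 62 immature V2R neurons gave 98 genes higher in V2R and 245 higher in V1R cells. At P10 the V2R-side list had a median log2 ratio of 0.45 in mature V1R neurons, with 18 of 77 genes at least 2-fold higher and 9 lower. The V1R-side list had a median of -0.20, with 4 of 236 higher and 26 lower. Of all 11527 genes with 20 UMIs, 2.85% were higher and 3.91% lower. Both lists held genes of other cells, such as Lcn3, Dmbt1 and Cyp2a5 on the V1R side and Bglap, C1qa and S100a9 on the V2R side. However, when the lists were chosen again in the 127 and 14 keratin-poor immature cells, the V2R-side median was 0.07, and -0.04 in keratin-poor cells. The V1R-side medians were then -0.44 and -0.64. The V2R-side median thus changed sign between choices, whereas the V1R-side median was below 0 under each. Both lists were picked in the control library, which is also the denominator of these ratios, so no direction is drawn from either.

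Over all genes, 138 of 9095 with 50 UMIs (1.52%) were at least 2-fold higher in V1R neurons of the P10 mutant than of the P10 control, and 192 (2.11%) were at least 2-fold lower. In keratin-poor cells 76 of 4206 (1.81%) were higher and 160 (3.8%) lower. Requiring UMIs in at least 20% of cells of the higher library, and the same call without its leading cell, left 47 higher and 102 lower genes, of which the 15 with the most extreme bounds in each direction were taken for naming.

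Of the 15 higher genes, Tfap2e, Gnao1 and Mt3 are given above, and 10 others were also past 2-fold in keratin-poor cells. Smchd1 (chromosome 17, 71344489 to 71475343, minus strand), a gene for a chromatin protein of X inactivation and imprinted clusters, was at 76.5, 263 and 69.2 CPM. In keratin-poor cells it was at 44.7, 484 and 80.1 CPM, a P10 ratio of 10.8 [7.67, 15.6] and a ratio between the mutants of 0.165 [0.109, 0.244]. All 16 keratin-poor cells of the P10 mutant held it, at 36.5 to 2730 CPM, against 24 of 49 cells of the control. The 3-month mutant stood at 1.79 [1.08, 2.95] times the control, where both age and genotype differ. V2R neurons had 97.0, 103 and 32.1 CPM, so the high level was seen in V1R neurons of the P10 mutant.

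Rab3c (chromosome 13, 110054187 to 110280996, minus strand), a gene for a synaptic vesicle GTPase, was at 18.8, 194 and 221 CPM in V1R neurons, with a keratin-poor P10 ratio of 10.9 [7.53, 16.2]. A single cell held 47.6% of its keratin-poor UMIs in the P10 mutant, but the 3-month mutant reached 398 CPM with 14.1% in its leading cell. Gm36028 (chromosome 16, 37850913 to 37861146, minus strand), a predicted gene, was at 72.4, 501 and 549 CPM, with a keratin-poor P10 ratio of 7.91 [6.50, 9.69]. It was at 2251 CPM in V2R neurons of the control, 31.1 times the level in V1R neurons of that library. Both genes were about as high in the 3-month as in the P10 mutant, with keratin-poor ratios between them of 0.934 [0.744, 1.17] and 0.827 [0.718, 0.952].

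Cnpy1 (chromosome 5, 28200819 to 28245806, minus strand), a member of the canopy family of endoplasmic reticulum proteins, was at 427 CPM in V2R neurons of the control and 5.19 CPM in its V1R neurons. V1R neurons of the P10 mutant held 38.3 CPM and those of the 3-month mutant 18.1 CPM. In keratin-poor cells the P10 ratio was 27.2 [8.60, 138] from 36 and 3 UMIs. Cnpy1 UMIs were found in 5 of 16 keratin-poor cells of the P10 mutant, so the higher pooled level came from a minority of cells. Fbxo17, an F-box gene, was at 8.95, 48.4 and 56.7 CPM, with a keratin-poor P10 ratio of 8.62 [4.21, 19.4] and 13 of 16 cells positive. Cst6, a cystatin gene, had a keratin-poor P10 ratio of 4.87 [3.92, 6.09] and Kctd1 one of 9.16 [5.97, 14.5]. Dlx4, a homeobox gene, had one of 3.87 and Ndufaf5, an assembly factor gene of complex I, one of 2.74.

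The last of the 10 was Lcn2, an iron-binding lipocalin gene, which had 62.6% of its P10 mutant UMIs in 1 cell, yet was 3.30 times [1.44, 7.86] the control in keratin-poor cells. The other 2 of the 15, S100a8, a neutrophil gene, and Vps37b, a gene of endosomal sorting, had keratin-poor ratios of 1.21 [0.444, 3.04] and 1.25 [0.540, 2.73]. Neutrophil markers summed to 223, 1468 and 820 CPM in V1R neurons and to 113, 109 and 112 CPM in keratin-poor cells.

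**Figure D2:**
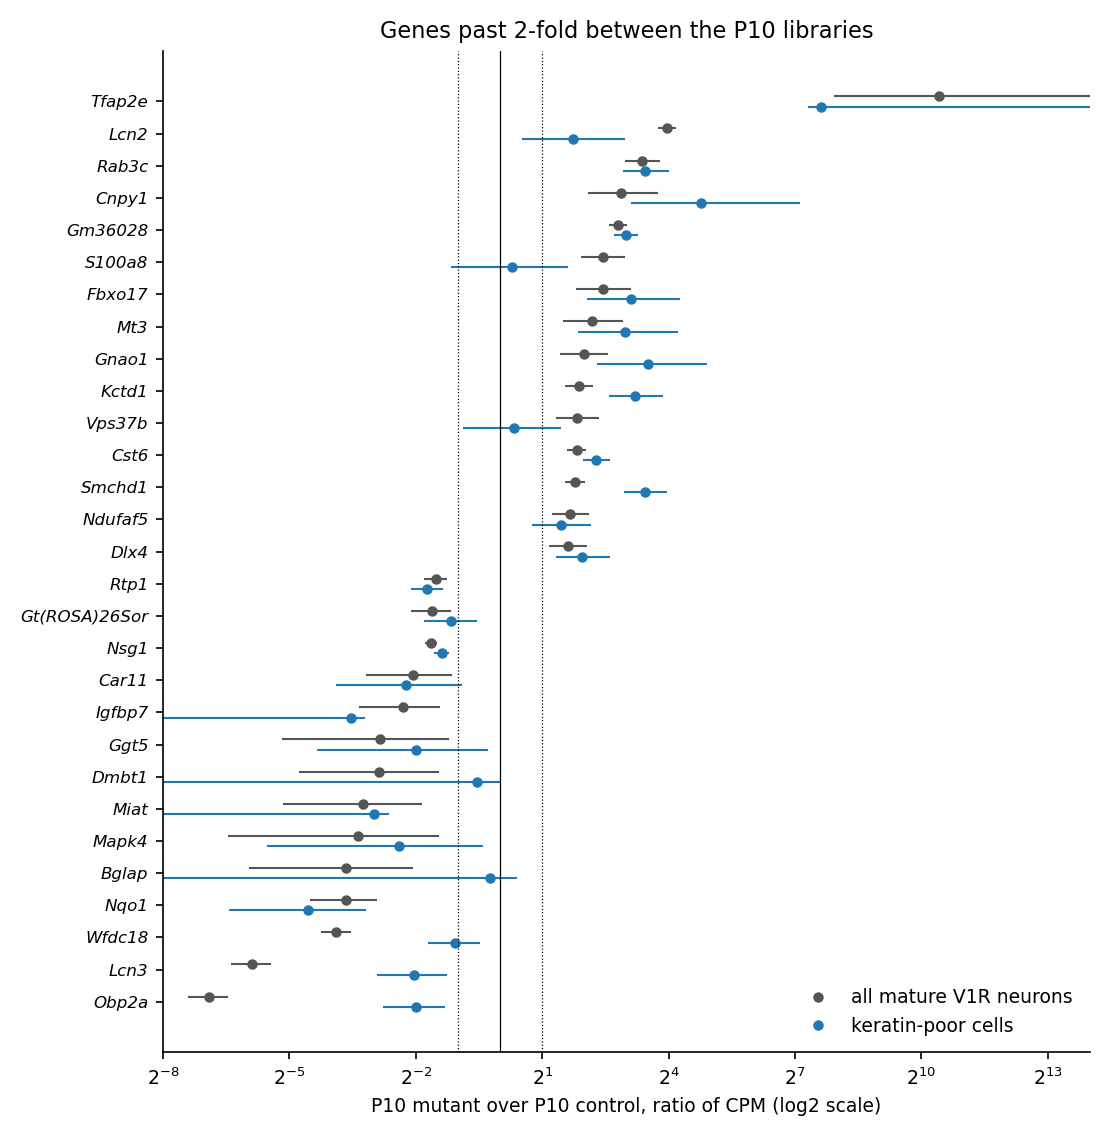
Ratio of CPM between the P10 mutant and the P10 control (log2 axis) for genes named by the rule, over all mature V1R neurons in grey and keratin-poor cells in blue, with 95% intervals. Bars that reach the frame run past it, a library at 0 UMIs takes 3 counts, and 13 of the 15 higher genes stay above 2-fold in keratin-poor cells, S100a8 and Vps37b being the exceptions.

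Rtp1 and Nsg1 were among the 15 lower genes. Rtp1, a chaperone gene for olfactory receptors, was at 289, 100 and 51.6 CPM, with a keratin-poor P10 ratio of 0.302 [0.231, 0.389]. Nsg1, a gene for an endosomal protein of neurons, was at 1049, 337 and 302 CPM, with a keratin-poor ratio of 0.383 [0.338, 0.433]. Its keratin-poor cells ran from 300 to 4180 CPM in the control and from 0 to 2087 CPM in the P10 mutant, so the libraries overlapped. Neither was higher at 3 months, with keratin-poor ratios between the mutants of 0.728 [0.491, 1.07] for Rtp1 and 0.716 [0.597, 0.857] for Nsg1.

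Gt(ROSA)26Sor, the noncoding transcript of the Rosa26 locus itself, was at 95.2 CPM in V1R neurons of the control and 31.1 CPM in those of the P10 mutant. Its keratin-poor ratio was 0.447 [0.284, 0.679], and 0.819 [0.440, 1.50] between the mutants. Car11, a gene for a carbonic anhydrase-like protein, had a keratin-poor P10 ratio of 0.214 [0.0668, 0.532]. Miat, a long noncoding RNA gene, had 54 UMIs in keratin-poor cells of the control and 0 in those of the P10 mutant. With the floor of 3 counts its ratio was 0.126. Mapk4 and Ggt5 had keratin-poor ratios of 0.189 and 0.252 from 2 and 3 UMIs in the mutant.

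Gland transcripts made up another group of lower genes. Obp2a and Lcn3, secreted lipocalin genes of nasal glands, were at 3296 and 1714 CPM in the control and at 27.4 and 28.9 CPM in the mutant at P10, and 96.3% and 94.2% of their control UMIs lay in 1 cell. In keratin-poor cells their ratios were 0.249 and 0.243, and that of Wfdc18 was 0.478. Gland markers summed to 5203, 60.7 and 1336 CPM in V1R neurons and 398, 93.8 and 2007 CPM in keratin-poor cells. Bglap, Dmbt1 and Igfbp7 are genes of bone, gland and vessel cells, and each was at 0 UMIs in keratin-poor cells of the P10 mutant. The part of other cells in these values was not tested.

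The promoters of the named genes, and of the genes of the pathway lists with at least 50 UMIs, that were past 2-fold at P10 were searched for GCCNNNGGC, the consensus of AP-2 factors, which reads the same on both strands. RefSeq's table for GRCm38.p6 gave 300 bases around the start of 32851 genes, and 5450 of them (16.6%) held the motif. Of 20 higher genes 14 had an entry, and 2 of these held the motif (S100a8 and Fbxo17). Of 19 lower genes 12 had an entry, and 1 held it (Car11). The 250 bases before the start of Fbxo17 (chr7:28716532-28716781, plus strand) and Car11 (chr7:45699554-45699803, plus strand) are shown as promoters with a match, in capitals. Those of Cnpy1 (chr5:28245789-28246038, minus strand) and Nqo1 (chr8:107403206-107403455, minus strand), the genes with the most extreme keratin-poor ratios after Tfap2e, are shown as promoters whose letters hold no match. All read 5′ to 3′ along the gene.
Fbxo17: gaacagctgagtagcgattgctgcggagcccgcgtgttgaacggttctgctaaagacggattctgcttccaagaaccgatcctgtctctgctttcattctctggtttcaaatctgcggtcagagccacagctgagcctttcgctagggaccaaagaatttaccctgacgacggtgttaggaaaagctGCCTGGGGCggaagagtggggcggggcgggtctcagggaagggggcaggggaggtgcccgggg
Car11: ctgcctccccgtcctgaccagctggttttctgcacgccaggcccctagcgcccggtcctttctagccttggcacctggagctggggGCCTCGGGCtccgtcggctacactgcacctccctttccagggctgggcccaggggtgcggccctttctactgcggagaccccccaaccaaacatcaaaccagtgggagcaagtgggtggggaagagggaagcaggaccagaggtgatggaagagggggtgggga
Cnpy1: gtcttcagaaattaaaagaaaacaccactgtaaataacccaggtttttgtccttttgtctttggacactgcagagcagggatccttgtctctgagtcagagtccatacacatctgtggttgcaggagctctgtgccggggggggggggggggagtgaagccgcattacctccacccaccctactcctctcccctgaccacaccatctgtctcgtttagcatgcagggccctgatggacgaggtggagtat
Nqo1: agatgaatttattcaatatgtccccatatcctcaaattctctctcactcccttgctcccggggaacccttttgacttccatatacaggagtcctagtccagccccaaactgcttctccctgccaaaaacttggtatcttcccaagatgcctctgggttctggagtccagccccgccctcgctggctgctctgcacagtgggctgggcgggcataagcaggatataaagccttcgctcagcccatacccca

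Signal transduction genes were compared as a list of 29. Of 25 with 20 UMIs, 2 were at least 2-fold higher and 1 lower at P10, where 2.85% and 3.91% of all genes were, and the median log2 ratio was -0.20. Of 21 in keratin-poor cells 4 were higher and 4 lower, where 3.28% and 6.38% of all genes were, and the median was -0.11. Gng13, a G protein gamma subunit gene of olfactory transduction, was at 1387, 598 and 314 CPM. In keratin-poor cells it was at 2696, 988 and 678 CPM, with ratios of 0.367 [0.329, 0.408] at P10 and 0.686 [0.583, 0.805] between the mutants. Median levels of single keratin-poor cells were 2357, 768 and 384 CPM. Gng8, the gamma subunit gene of VSNs, did not follow Gng13, at 1543, 1845 and 1590 CPM in keratin-poor cells. Markers of main olfactory neurons summed to 669, 228 and 152 CPM there. The part of such neurons in the Gng13 values was not tested.

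The 4 higher genes in keratin-poor cells were Gnao1, Itpr1, Plcb4 and Cacna1b, and the 4 lower ones were Gng13, Pde4a, Gnb2 and Orai1. Itpr1, the gene of the inositol trisphosphate receptor that releases stored calcium, had a keratin-poor P10 ratio of 4.54 [2.18, 9.96] and stood at 61.4 CPM at 3 months. Plcb4, a phospholipase C gene, had one of 2.97 [1.36, 6.64] and Cacna1b, a calcium channel gene, one of 2.11 [1.34, 3.32]. Cacna1b was at 45.4 CPM in keratin-poor cells at 3 months, 0.447 [0.238, 0.807] of the P10 mutant, and Plcb4 at 42.7 CPM, 0.991 [0.469, 2.09] of it. Gnb1, the main beta subunit gene, was at 4292, 3982 and 2292 CPM in keratin-poor cells, with a ratio of 0.576 [0.529, 0.626] between the mutants.

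Lists of general neuronal function were read against the 2.85% of all genes that were higher and the 3.91% that were lower at P10. Of 18 transcription factor genes of VSNs, 0 were past 2-fold in either direction at P10, among them Lhx2, Ebf1 and Emx2, and their median log2 ratio was 0.10. Of 19 genes of mature neurons 2 were lower and 0 higher, with a median of -0.32 against -0.02 for all genes, and these were Nsg1 and Chgb, the gene of a granin of secretory granules (100, 45.5 and 38.0 CPM). Of 21 oxidative phosphorylation genes 0 were past 2-fold in either direction. Among 28 chaperone and unfolded protein response genes 1 was lower. In keratin-poor cells 4 of 26 were lower, where 6.38% of all genes were, among them Calr at 0.154 [0.0828, 0.265] and Herpud1 at 0.422 [0.352, 0.502], and 1 was higher, where 3.28% were, Dnajc3 at 2.21 [1.57, 3.10].

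In the axon guidance and adhesion list, 2 of 23 genes were at least 2-fold higher at P10, Kirrel3 and Pcdh10, and 0 lower, where 2.85% and 3.91% of all genes were. In keratin-poor cells these 2 of 21 were higher and 1, Kirrel2, lower, where 3.28% and 6.38% were. Pcdh10, a protocadherin gene of cell recognition, was at 114, 243 and 230 CPM, and in keratin-poor cells at 209, 631 and 667 CPM. Its keratin-poor ratios were 3.02 [2.49, 3.67] at P10 and 1.06 [0.883, 1.26] between the mutants. Epha5 and Cntn4, axon receptor genes with higher counts, were at 517, 532 and 544 CPM and at 749, 705 and 595 CPM in keratin-poor cells. The median log2 ratio of the list was -0.13, and 0.0085 in keratin-poor cells.

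Between the mutants, 262 of 7534 genes (3.48%) were at least 2-fold higher at 3 months and 303 (4.02%) at least 2-fold lower. In keratin-poor cells 78 of 2657 (2.94%) were higher and 131 (4.93%) lower. Of the antigen presentation genes 7 of 11 were at least 2-fold higher and 0 lower, where 5.27% and 6.29% of 10508 genes with 20 UMIs were. In keratin-poor cells 6 of 7 were higher, where 4.64% of 5411 genes were, and the median log2 ratio was 2.95.

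B2m, the light chain gene shared by class I molecules, was at 130, 154 and 569 CPM in the 3 libraries, and in keratin-poor cells at 121, 157 and 547 CPM. The ratio between the mutants in keratin-poor cells was 3.48 [2.61, 4.70]. Single keratin-poor cells ran from 37.2 to 423 CPM in the P10 mutant and from 0 to 3035 CPM at 3 months, with medians of 110 and 444 CPM. The ranges overlapped while the 3-month median lay above the highest P10 mutant cell. The class I heavy chain genes H2-D1 and H2-K1 had keratin-poor levels of 90.5, 32.9 and 451 CPM and of 40.2, 17.7 and 227 CPM. Their ratios between the mutants were 13.7 [7.79, 26.2] and 12.8 [5.94, 32.8]. In keratin-poor cells Psmb8 and Psmb9, subunit genes of the immunoproteasome, had 1 and 0 UMIs in the P10 mutant. At 3 months they had 35 and 22. The ratio was 36.8 with a lower bound of 6.19 for Psmb8. For Psmb9 it was 7.72 with the floor of 3 counts in place of 0.

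These genes were also expressed outside the neurons. The list summed to 845, 1022 and 2565 CPM in V1R neurons, 455, 393 and 1670 CPM in keratin-poor cells, and 5752, 5458 and 9035 CPM in the Tyrobp-positive cells. Their part in the neuronal values was not tested. Against the P10 control the 3-month keratin-poor ratios were 4.53 [3.57, 5.78] for B2m and 4.98 [3.80, 6.58] for H2-D1, where both age and genotype differ.

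**Figure D3:**
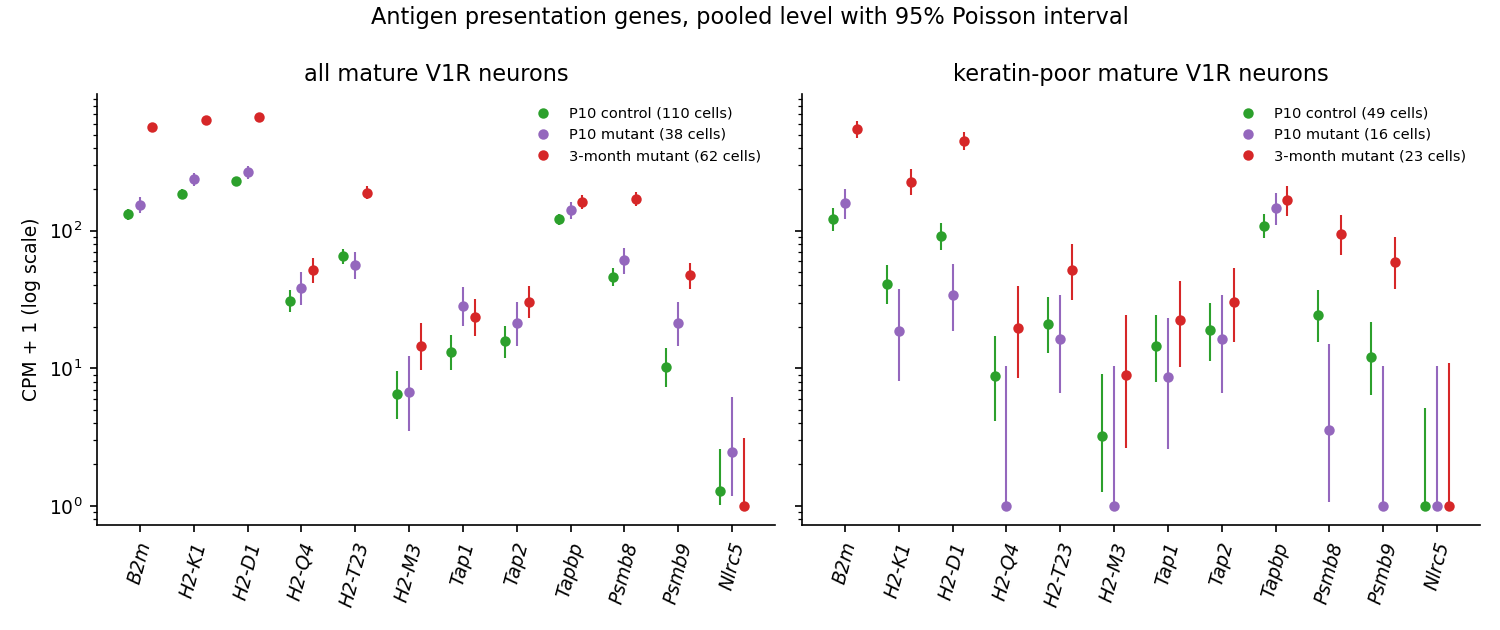
Pooled levels of the antigen presentation genes (CPM + 1, log scale) with 95% Poisson intervals, in all mature V1R neurons on the left and in keratin-poor cells on the right. The 3-month mutant (red) is above both P10 libraries for B2m, H2-K1, H2-D1, H2-T23, Psmb8 and Psmb9 in both panels.

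Genes of immature neurons were compared between the mutants, although the rule had already limited Gap43 and Stmn2. Of 15 with 20 UMIs, 3 were at least 2-fold lower and 0 higher at 3 months, where 6.29% and 5.27% of all genes were, and the median log2 ratio was -0.49. In keratin-poor cells 4 of 14 were lower, where 8.45% of all genes were, and the median was -0.77. Dcx, a microtubule gene of migrating neurons, was at 83.8, 55.8 and 8.01 CPM there, a ratio between the mutants of 0.144 [0.0275, 0.478] from 3 and 22 UMIs. Sox11, a transcription factor gene of neuronal differentiation, was at 68.1, 91.2 and 10.7 CPM, a ratio of 0.117 [0.0302, 0.326]. Marcksl1 and Dpysl3, genes of the growing cytoskeleton, had ratios of 0.183 [0.0460, 0.536] and 0.324 [0.173, 0.576]. The guidance genes Plxna3, Plxna1 and Efna3 had ratios of 0.175 [0.0331, 0.601], 0.351 [0.172, 0.672] and 0.423 [0.301, 0.586].

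The genes named by the rule between the mutants are given with their leading cells and their levels in keratin-poor and Tyrobp-positive cells, and the part of other cells in them was not tested. Igkc, Igha and Jchain, genes of antibody-secreting cells, were at 4763, 1225 and 638 CPM at 3 months, and 83.8%, 89.8% and 86.9% of their UMIs lay in 1 cell. Depp1, Pigr, Cp and Ifi27l2a were at 5.34 to 21.3 CPM or 0 UMIs in keratin-poor cells at 3 months, against 99.2 to 577 CPM over all V1R neurons. Gm42418, which overlaps ribosomal RNA, went from 1234 to 21606 CPM in V1R neurons and from 1629 to 41057 CPM in the Tyrobp-positive cells. Lars2 and AY036118 went the same way in both, as did the gland genes Obp2a, Wfdc18, Lcn4 and Bpifa1. Igfbp7, a vessel gene, had 46.1% of its 3-month UMIs in 1 cell.

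Among the lower named genes Ftl1-ps1, a ferritin pseudogene, went from 735 to 21.5 CPM in V1R neurons and from 1799 to 56.5 CPM in the Tyrobp-positive cells. It shares sequence with Ftl1, so its count is uncertain. Cldn4, Sult1e1, Ovol1, Tuft1, Gas1, Cxcl10, B830012L14Rik, Rian and Mirg were at 0 to 40.6 CPM in keratin-poor cells of the P10 mutant, against 53.4 to 789 CPM over its V1R neurons. Spp1 and Gm26917 were lower in the Tyrobp-positive cells as well, from 314 to 33.0 CPM and from 148 to 54.7 CPM. Homer2, a synaptic scaffold gene, differed in keratin-poor cells too, at 49.2, 58.3 and 2.67 CPM in keratin-poor cells and a ratio of 0.0458 [0.00111, 0.282] between the mutants from 1 and 23 UMIs. AA465934 went from 58.3 to 5.34 CPM there. Hspa1b, a heat shock gene, was lower in V1R neurons (0.124) and in the Tyrobp-positive cells, at 714 and 135 CPM.

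Receptor choice was described from the Vmn1r gene with the most UMIs in each cell, since near-identical receptor genes can share reads. This gene held at least 80% of the Vmn1r UMIs in 89 of 110 control cells (80.9% [72.3, 87.8]), 29 of 38 P10 mutant cells (76.3% [59.8, 88.6]) and 61 of 62 cells at 3 months (98.4% [91.3, 100.0]). In keratin-poor cells the counts were 47 of 49, 15 of 16 and 23 of 23, so nearly every keratin-poor cell was dominated by 1 receptor gene in all 3 libraries. The exception in the P10 mutant held 12 Vmn1r genes, with 26.3% of UMIs from the leading one. The median count of Vmn1r UMIs per keratin-poor cell was 232, 371 and 267.

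**Figure D4:**
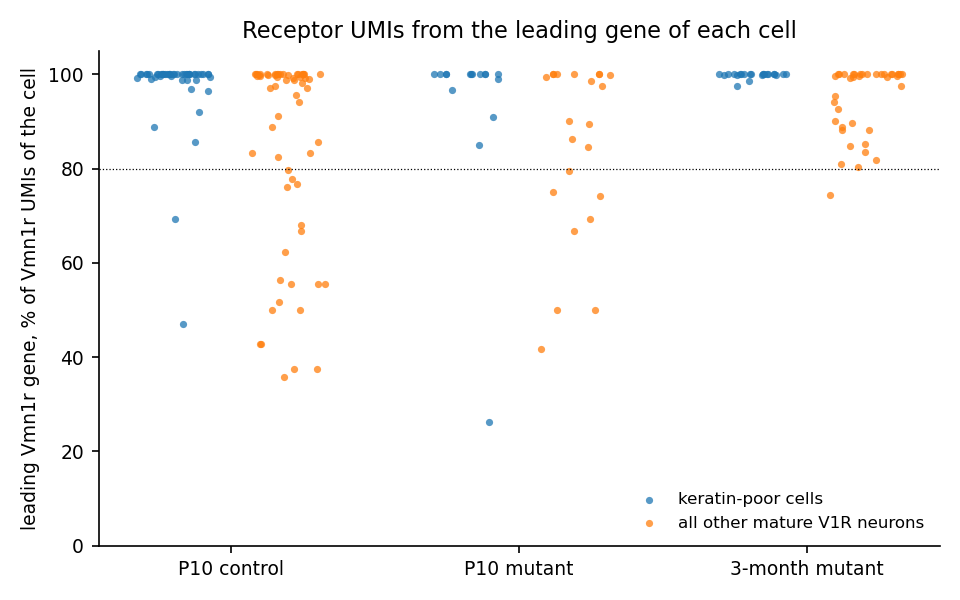
Share of Vmn1r UMIs (percent) from the leading Vmn1r gene of each mature V1R neuron, by library, with keratin-poor cells in blue and all other cells in orange (dotted line at 80%). All keratin-poor cells but 2 of the control and 1 of the P10 mutant lie above the line, and the cells below it are mostly orange.

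The leading genes were spread over the family. They numbered 65, 29 and 43 in the 3 libraries and 92 of 209 Vmn1r features in all, and 9 led cells in every library. Of the 29 in the P10 mutant, 15 also led in the P10 control, which is 51.7% of the mutant genes and 23.1% of the control genes. The most frequent was Vmn1r35 (chromosome 6, 66678070 to 66685906, minus strand), leading in 6, 1 and 3 cells, followed by Vmn1r89 (chromosome 7, 13213020 to 13220657, plus strand) in 2, 3 and 2 cells. Leading genes lay on chromosome 7 in 73 cells, chromosome 6 in 71, chromosome 13 in 45, chromosome 17 in 20 and chromosome 1 in 1. In the same order these chromosomes hold 103, 51, 35, 14 and 1 Vmn1r features. A test of receptor choice between libraries was not possible with 1 library per group.

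V2R transcripts in V1R neurons were limited by the rule and are given as a description. They summed to 60.0, 37.6 and 125 CPM in V1R neurons, against 4892, 4979 and 13621 CPM in V2R neurons. The Vmn1r genes in turn summed to 29.1, 16.2 and 9.62 CPM in V2R neurons.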

How the data were processed

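Per the labels and file headers, the authors dissociated VNOs, made 10x 3′ libraries and counted UMIs with Cell Ranger (4.0.0 for P10, 6.0.1 for 3 months) on mm10; the submitters' processing notes also name bcl2fastq and Seurat 3.2.3. The deposited values are raw UMI counts per gene and barcode, without normalization, for 32285 features, of which 32158 matched GENCODE M21. The study allowed at most 5% mitochondrial UMIs, and 10% was used here, with 200 to 9000 genes per cell. Doublets were not removed and free RNA was not corrected.

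Counts of the selected cells were pooled per library and scaled to CPM with Python 3.11.15, numpy 2.4.6 and scipy 1.17.1. Poisson, Clopper-Pearson and conditional binomial intervals were exact and cover 95%, and edgeR 4.0.16 gave TMM factors for 1 alternative. A gene was past 2-fold at a ratio of at least 2 or at most 0.5, with at least 50 UMIs in both libraries together (20 for lists), and 0 took a floor of 3. Named genes were the 15 with the highest lower bound and the 15 with the lowest upper bound among genes past 2-fold, with UMIs in at least 20% of cells of the higher library and still past 2-fold without its leading cell, beside list genes. Receptor, mitochondrial and rule genes were left out of that naming. The script was tested on simulated data. The members, lists and rules were chosen with earlier results of these data known, and the keratin split, the alternatives built on it and the limit of 1000 CPM for Calb2 and Chga after the data had been seen. Genes that overlap or share sequence are uncertain. Promoters came from RefSeq (GRCm38.p6). Alternatives were other cell limits, thinning, other minimum counts, TMM scaling, per-cell means and leaving out leading cells. Some genes are not reported here.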

Additional observations from a re-analysis of the deposited data

How the results depend on the processing

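No paired analysis was possible because each group was 1 library. Of the summary values under alternatives, 120 stayed within a set range and 53 moved. The range was the counting interval for shares, and for the single-gene ratios below, and 1.5 times for counts. For list medians it was an interval between ordered ratios of the list's own genes. In the short identity lists that interval spans nearly all genes, so their medians could hardly leave it. Causes were not tested, except that thinning and minimum counts change how many genes can be counted. With keratin-poor cells alone there were 49, 16 and 23 cells, with a 5% mitochondrial limit 40, 15 and 28, and without cells holding over 0.5% of UMIs from other-cell lists 18 at 3 months. The V1R share moved to 94.2% (keratin-poor) and 80% (5% limit) in the control, and to 46.2% at 3 months without cells rich in other-cell markers.

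Genes at least 2-fold higher at P10 numbered 12 after thinning to 2000 UMIs, 76 in keratin-poor cells, 241 on the mean of per-cell CPM, 38 at a minimum of 200 UMIs and 3132 with none. Lower genes numbered 41 after thinning, 336 on the mean, 54 at 200 UMIs, 326 at the 5% limit and 847 with no minimum. Between the mutants, higher genes numbered 39, 78, 85 and 1971 after thinning, in keratin-poor cells, at 200 UMIs and with no minimum. Lower genes there numbered 20, 131, 88 and 2434, with 506 on the mean and 520 without cells rich in other-cell markers. The numbers with no minimum include genes that lack UMIs in a library and take the floor of counts there. Such a gene, with few UMIs in the other library, can pass 2-fold in the direction opposite to its counts. How many genes differ is therefore not read from the numbers with no minimum.

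The apical and basal identity medians (log2) between the mutants were -0.76 and -0.99 at the 5% limit. The immature V1R-side median at P10 was negative throughout, at -0.12 with a receptor limit of 95%, -0.51 in keratin-poor cells, -0.44 and -0.64 with lists from keratin-poor cells, likewise in all and in keratin-poor V1R neurons, -0.069 on the mean, -0.29 with Calb2 and Chga at 1000 CPM, -1.00 at the 5% limit and -0.27 without cells rich in other-cell markers. Between the mutants it was 0.22 after thinning and with Calb2 and Chga at 1000 CPM, -0.18 with both lists and cells keratin-poor, 1.58 at the 5% limit and -1.07 without cells rich in other-cell markers, so no direction is given. The V2R-side median at P10 was 0.18 after thinning, 0.066 and -0.041 with lists from keratin-poor cells, over all V1R neurons and keratin-poor ones, and 0.68 at the 5% limit. Between the mutants it was -0.26 in keratin-poor cells, -0.21 on the mean, -0.21 with Calb2 and Chga at 1000 CPM and -0.50 at the 5% limit.

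Of the single-gene ratios 230 stayed, 108 moved and 2 turned direction. Mt3 at P10 was 0.456 after thinning, and Nqo1 between the mutants was 0.526 in keratin-poor cells, both from few UMIs. The P10 ratio of Gnao1 ran from 3.88 to 11.3 and that of Smchd1 from 2.58 to 10.8.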

Other observations

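Some gene groups did not enter the comparisons above. Immediate early genes, which neurons induce on activity and cells induce on dissociation, had 0 of 16 members past 2-fold in either direction at P10 over all V1R neurons, where 2.85% of all genes were higher and 3.91% lower, and a median log2 ratio of 0.12. In keratin-poor cells 2 of 12 were at least 2-fold lower, where 6.38% of all genes were, and the median was -0.71. Redox and detoxification genes had 2 of 18 members at least 2-fold lower at P10 and 0 higher, where 3.91% and 2.85% of all genes were. These were Nqo1, also an apical identity gene, and Ugt2a2, a glucuronosyltransferase gene. Gstm1, a glutathione transferase gene, was at 230, 181 and 506 CPM in V1R neurons of the 3 libraries but at 5 UMIs, 1 UMI and 3 UMIs in keratin-poor cells.

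Markers of mature main olfactory neurons, which also express Omp, summed to 350, 142 and 82.8 CPM in V1R neurons and to 669, 228 and 152 CPM in keratin-poor cells. Rtp1 is 1 of the 6 genes of that list. The part of such neurons in the P10 ratios of Rtp1 and Gng13 was not tested.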
